A study of Mus musculus with 6 samples.

Results

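The cytidine deaminases of the AID/APOBEC family that these arrays measure, and the enzymes that detect or remove the uracil they leave in DNA, were described across 3 kinds of mouse liver tumour. The 8 genes were Apobec1, Apobec2, Apobec3, Ung, Tdg, Smug1, Mbd4 and Msh6, named as a pathway and found through the accession that each probe carries, out of 22911 symbols on the array. All 8 were present, on 15 probes. Agilent arrays with a single colour measured RNA of 6 frozen hepatocellular carcinomas (HCC) of C57BL/6 mice, each on its own array. The first pair, Epcam-derived HCC with CLC, and the second pair, Epcam-derived HCC without CLC, came from Epcam-AID mice given tamoxifen and then a diet with 0.1% DDC, a porphyrin-inducing chemical that injures bile ducts, for 8 months. The last pair, Albumin-derived HCC without CLC, came from Alb-AID mice killed at 90 weeks. The labels do not spell out CLC, which they name as part of a tumour, and the series title gives ductular progenitor cells as the origin of the Epcam-derived tumours. All 3 groups carry the AID transgene, and the labels give the lines by name without describing how AID is driven in them. No tumour from a mouse without the transgene and no tumour-free liver is among the samples used here, so a difference between groups is one between AID-driven tumours. Transgenic line, tamoxifen and diet all differ between the Epcam-derived and the Albumin-derived tumours and cannot be told apart. Age in weeks is given for the Albumin-derived tumours only, so a part of age cannot be told apart from these either.

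AID turns cytosine into uracil in DNA and is known from B cells, where it starts antibody somatic hypermutation and class switching. Its relatives act on other substrates, among them the Apob messenger RNA edited by Apobec1 and the retroviral DNA attacked by Apobec3. A uracil left in DNA is cut out by a uracil DNA glycosylase and refilled by base excision repair, is recognised as a U:G mismatch by a mismatch repair complex that contains Msh6, or is copied and becomes a C-to-T mutation. Glycosylases of this kind also act in active DNA demethylation, where they remove oxidised or deaminated 5-methylcytosine.

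None of the 7 genes that could be tested passed the threshold in any of the 3 comparisons (limma, adjusted p of 0.05 over 27412 features). The differences with the smallest p were those against Albumin-derived tumours. Ung, the main uracil glycosylase, was lower in both kinds of Epcam-derived tumour, by 1.08 and 1.20 on the log2 scale. Apobec3 was higher in Epcam-derived tumours without CLC, by 0.99 on the log2 scale, and Mbd4 was higher in Epcam-derived tumours with CLC, by 0.69. On their brightest probes, Smug1 and Tdg differed by at most 0.23 on the log2 scale in any comparison.

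Levels are log2 signals relative to the 75th percentile of the array, so 0 stands for that percentile, and they compare tumours for 1 probe but not 1 gene with another. The percentile lay at signals between 285 and 488, and no spot was saturated. The arrays lay on 2 slides. Slide 1 held Epcam-derived tumour 1 with CLC and both Albumin-derived tumours, with 52.0% to 56.5% of probes above background, and slide 2 held Epcam-derived tumour 2 with CLC and both Epcam-derived tumours without CLC, with 63.1% to 64.6%. The labels do not say that tumours of a group came from separate mice, and with 2 arrays a group the p-values measure the spread between these samples. In whole tumours, fewer cells of a type and less RNA per cell cannot be told apart.

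Among the deaminases, Apobec1 is the enzyme that edits the Apob transcript, in mouse liver as well as in intestine. Its brightest probe read 2.65 and 3.06 in Epcam-derived tumours with CLC, 2.31 and 2.80 in those without CLC, and 1.94 and 2.58 in Albumin-derived tumours. The groups overlapped except for Epcam-derived tumours with CLC against Albumin-derived tumours, where both of the first pair were higher. The difference there was 0.60 ± 0.36 (SE) with an adjusted p of 0.472, and the same-signed values of the other comparisons were 0.30 ± 0.36 (adjusted p of 0.999) for Epcam-derived tumours with CLC minus those without and 0.29 ± 0.36 (adjusted p of 0.673) for Epcam-derived tumours without CLC minus Albumin-derived tumours. A second probe had the same order of arrays within each group, with 2.00 and 2.48, 1.74 and 2.29, and 1.13 and 1.81 in the same 3 groups. The remaining, dimmer probe disagreed, with 0.32 and -0.57 in Epcam-derived tumours with CLC, -0.40 and -0.73 in those without CLC, and -0.14 and 0.42 in Albumin-derived tumours, so the direction of the Apobec1 difference depends on the probe. With slide as a block, the difference of Epcam-derived tumours without CLC minus Albumin-derived tumours turned to -0.11 (adjusted p of 0.992).

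The partners of Apobec1 in editing were chosen for that known link and not by their values. A1cf, the RNA-binding cofactor that places Apobec1 on its target, differed by -0.22 ± 0.41 between Epcam-derived tumours without CLC and Albumin-derived tumours (adjusted p of 0.794). Rbm47, a second RNA-binding cofactor, differed by -0.04 ± 0.34 (adjusted p of 0.959). Apob itself, the transcript edited, was at 6.89 and 5.97 in Epcam-derived tumours with CLC, 6.03 and 7.13 in those without CLC, and 7.13 and 6.51 in Albumin-derived tumours. The ranges of Apob overlapped in all comparisons. Of 11 intestinal epithelium markers on the array, Fabp2, Guca2a, Lgals4 and Vil1 were above background on all 6 arrays, Slc5a1 on 3, Cdx1 and Muc2 on 1 each, and Cdx2, Sis, Alpi and Cdh17 on 0. Their summed linear level was 20.7 to 79.0 times the array percentile in Epcam-derived tumours with CLC, 9.79 to 18.4 times in those without CLC and 15.1 to 63.5 times in Albumin-derived tumours, and their part in the Apobec1 values was not tested. Hepatocyte markers averaged 5.76 to 6.97 on the log2 scale over the 6 arrays.

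Apobec2, a family member of heart and skeletal muscle for which no editing target is established, was not above background on any array. Its single probe read -6.30 and -6.95 in Epcam-derived tumours with CLC, -5.82 and -7.89 in those without CLC, and -6.98 and -6.77 in Albumin-derived tumours. It was therefore not tested. Of 12 striated muscle markers, Acta1, Tnni2 and Tnnt3 were above background on 6 arrays, Tnnc2 on 5, Casq1 and Myl1 on 3, Ckm and Myh2 on 1, and Actn3, Mb, Myh1 and Myh4 on 0.

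Apobec3, the only Apobec3 gene of the mouse and a restriction factor against retroviruses, gave the smallest p among the deaminases. Its brightest probe read 1.89 and 2.34 in Epcam-derived tumours with CLC, 2.73 and 2.51 in those without CLC, and 1.74 and 1.53 in Albumin-derived tumours. Both Epcam-derived tumours without CLC stood above the other 4 tumours. They exceeded the Albumin-derived tumours by 0.99 ± 0.29 (95% interval 0.27 to 1.70), a fold of 1.98, with an unadjusted p of 0.0152 and an adjusted p of 0.170 by limma. That p ranked 2453 among the 27412 features. Epcam-derived tumours with CLC lay between, 0.51 ± 0.29 below those without CLC on the log2 scale (a difference of -0.51, 95% interval -1.22 to 0.21, adjusted p of 0.999) and 0.48 ± 0.29 above Albumin-derived tumours (adjusted p of 0.471). All 3 values were smaller in size in fits that took slide into account. With slide as a block Epcam-derived tumours without CLC exceeded Albumin-derived tumours by 0.53 (adjusted p of 0.921). Epcam-derived tumours with CLC differed by -0.28 from those without CLC within slide 2 and by 0.25 from Albumin-derived tumours within slide 1. The 2 tumours with CLC alone link the slides, so slide and the difference between these tumours cannot be told apart.

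The other Apobec3 probes were dim. One read -1.62 and -4.48 in Epcam-derived tumours with CLC and -3.07 and -5.23 in those without CLC, and it was not well above background in either Albumin-derived tumour (-6.69 and -5.95). Against the lowest measurable signal it was at least 3.03-fold higher in Epcam-derived tumours with CLC (adjusted p of 0.261 when every probe was fitted) and at least 1.41-fold higher in those without CLC (adjusted p of 0.342). This probe passed the filter only through the Epcam-derived tumours, so its direction was set by the filter. The last probe read -4.45 and -2.88 in Epcam-derived tumours with CLC, -1.78 and -4.06 in those without CLC, and -5.35 and -4.36 in Albumin-derived tumours, with 1 array of the first pair and 1 of the last below background.

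Because Apobec3 is a gene that interferon can induce, its promoter was searched for the interferon response word, which is GAAA, any 2 bases and GAAA again, on both strands. RefSeq (GRCm38.p6) gives 2 starts for it, and the window of 250 bases before to 50 after the first start, chr15:79892158-79892457 on the plus strand, holds 1 match, on the minus strand, shown in capitals. The word is present in 3.44% of 32851 promoter windows of this length, and it was absent from the windows of the other 7 genes and from the second Apobec3 window.
Apobec3: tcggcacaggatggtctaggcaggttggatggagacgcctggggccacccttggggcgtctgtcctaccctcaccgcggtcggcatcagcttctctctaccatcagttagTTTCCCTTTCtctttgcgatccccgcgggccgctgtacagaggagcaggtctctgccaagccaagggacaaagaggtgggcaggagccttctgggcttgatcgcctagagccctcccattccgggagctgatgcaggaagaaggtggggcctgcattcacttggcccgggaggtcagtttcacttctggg

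**Figure D1:**
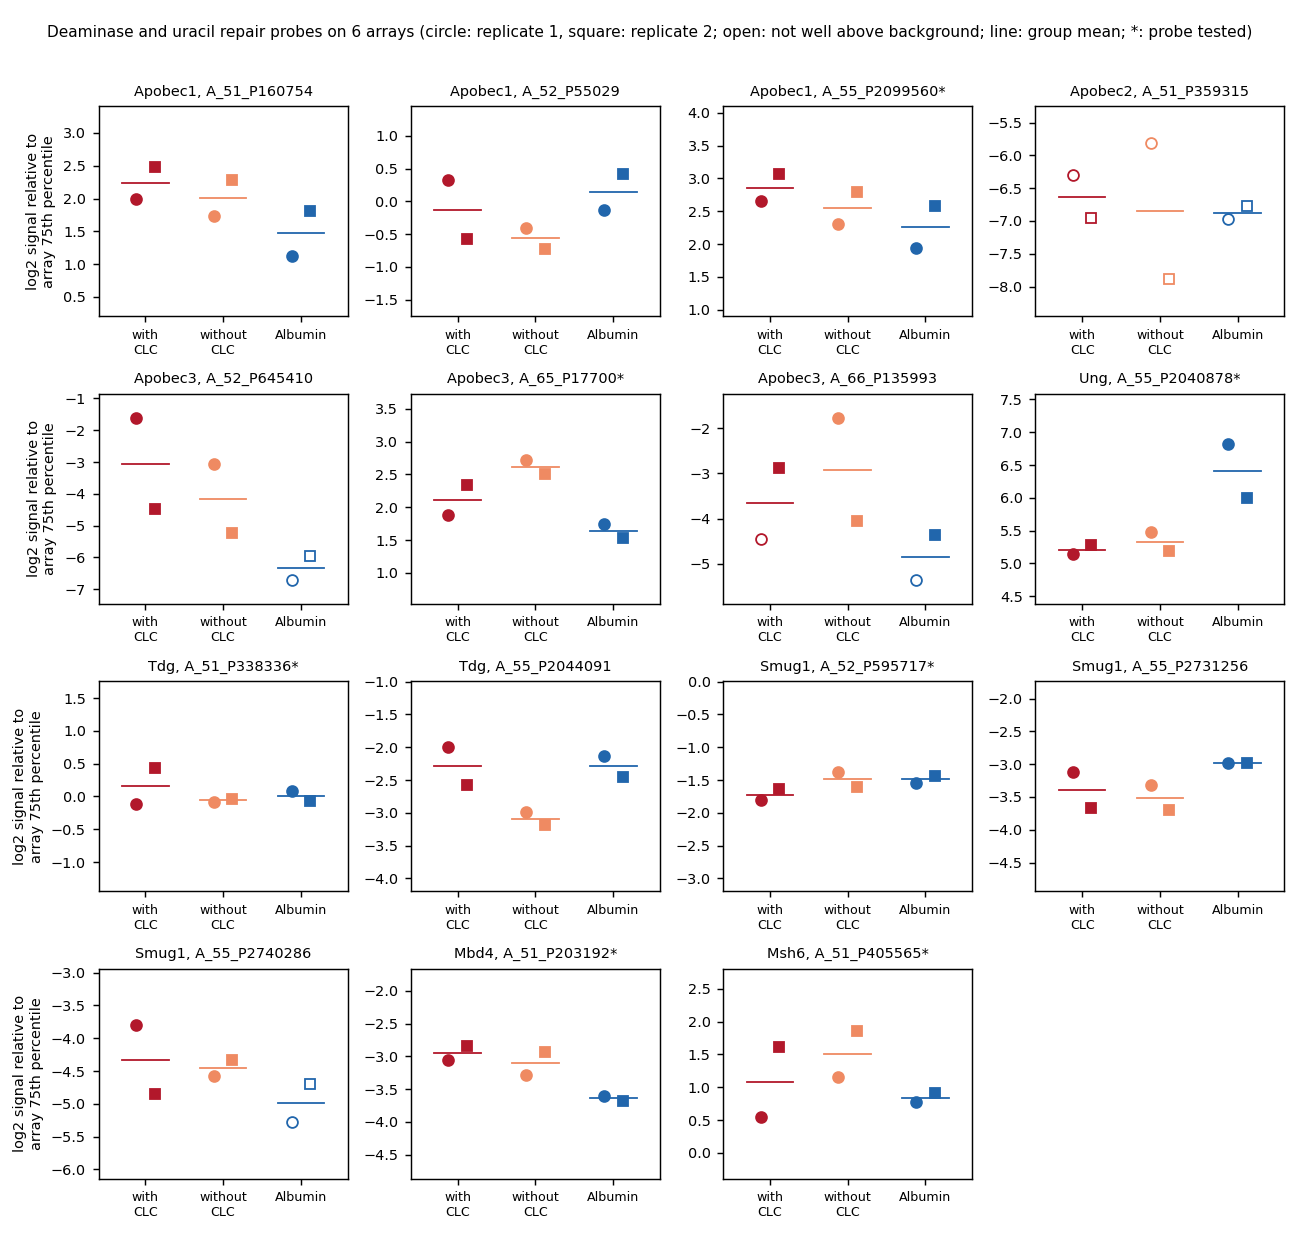
Log2 signal relative to the 75th percentile of the array for each of the 15 probes of the 8 genes, 1 panel per probe and 1 point per tumour (circle replicate 1, square replicate 2, open where not well above background), with Epcam-derived tumours with CLC, Epcam-derived tumours without CLC and Albumin-derived tumours from left to right and a line at each group's mean. In the tested probes, marked by an asterisk, Ung is highest in both Albumin-derived tumours, Apobec3 in both Epcam-derived tumours without CLC, and the untested Apobec2 probe lies below background on all 6 arrays.

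Ung removes uracil from single- and double-stranded DNA and is the enzyme that mainly processes AID-made uracil in B cells. Its probe read 5.15 and 5.27 in Epcam-derived tumours with CLC, 5.48 and 5.18 in those without CLC, and 6.82 and 6.00 in Albumin-derived tumours. Both Albumin-derived tumours lay above all 4 Epcam-derived tumours, which spanned 5.15 to 5.48. The difference was -1.08 ± 0.35 for Epcam-derived tumours without CLC (95% interval -1.96 to -0.20, unadjusted p of 0.0242, adjusted p of 0.193), where the Albumin-derived mean was 2.12 times as high. It was -1.20 ± 0.35 for Epcam-derived tumours with CLC (95% interval -2.08 to -0.32, unadjusted p of 0.0161, adjusted p of 0.216), where the Albumin-derived mean was 2.30 times as high. The 2 comparisons share the Albumin-derived tumours, so they are not independent of each other. Within slide 1, which holds 1 Epcam-derived tumour with CLC and both Albumin-derived tumours, the difference was -1.27 (adjusted p of 0.446).

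Between the Epcam-derived groups Ung differed by -0.12 ± 0.35 with a 95% interval of -0.999 to 0.76 (adjusted p of 0.999). No Epcam-derived tumour without CLC shared a slide with an Albumin-derived tumour. With slide as a block, a fit that joins them only through the 2 tumours with CLC, the Ung difference of Epcam-derived tumours without CLC minus Albumin-derived tumours was -1.21 (adjusted p of 0.818).

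The Ung promoter is shown because Ung had, among the tested probes and with the scaling reported here, the largest difference from Albumin-derived tumours in both comparisons. For the tumours without CLC that order was not kept under quantile normalization (-0.62 for Ung and 1.06 for Apobec3), with normexp (-1.02 and 1.07) or in the authors' deposited table (-0.77 and 1.30). Nor was it kept without Epcam-derived replicate 2 (-0.94 and 1.09) or without Albumin-derived replicate 1 (-0.67 and 1.09). For the tumours with CLC the order was not kept in the authors' deposited table (-0.88 for Ung, 1.01 for Mbd4 and 0.92 for Apobec1). The RefSeq window, chr5:114130185-114130484 on the plus strand of GRCm38.p6, holds 2 matches to the GC box CCGCCC, the word bound by Sp1-type factors, in capitals on either strand. That word is found in 35.7% of all 32851 windows. The window has 16 CpG dinucleotides against a median of 7 over all windows, and no TATAAA on either strand.
Ung: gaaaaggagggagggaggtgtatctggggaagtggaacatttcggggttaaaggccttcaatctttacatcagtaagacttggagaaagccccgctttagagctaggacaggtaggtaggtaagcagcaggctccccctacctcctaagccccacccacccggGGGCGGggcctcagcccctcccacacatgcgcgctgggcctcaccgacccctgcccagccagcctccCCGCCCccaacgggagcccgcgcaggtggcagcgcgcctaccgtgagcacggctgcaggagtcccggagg

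Smug1 is a glycosylase that also removes 5-hydroxymethyluracil and acts beside Ung. Its brightest probe read -1.81 and -1.63 in Epcam-derived tumours with CLC, -1.38 and -1.60 in those without CLC, and -1.55 and -1.43 in Albumin-derived tumours. Epcam-derived tumours with CLC were the lowest pair, by 0.23 ± 0.25 below each of the other groups on the log2 scale, with a 95% interval of -0.86 to 0.40 in both comparisons and adjusted p of 0.999 against Epcam-derived tumours without CLC and 0.695 against Albumin-derived tumours. Epcam-derived tumours without CLC and Albumin-derived tumours had the same mean to within 0.000788, with a 95% interval of -0.63 to 0.63. A second probe read -3.13 and -3.67 in Epcam-derived tumours with CLC, -3.32 and -3.70 in those without CLC, and -2.98 and -2.99 in Albumin-derived tumours, so both Albumin-derived values were above the other 4. The dimmest probe was above background in Epcam-derived tumours only, where it read -3.80 and -4.86 with CLC and -4.58 and -4.33 without CLC. In Albumin-derived tumours it read -5.28 and -4.69, a range that overlapped that of the tumours with CLC. This probe too passed the filter only through the Epcam-derived tumours, so its direction was set by the filter.

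Tdg removes thymine and uracil from mismatches with guanine and excises the oxidised cytosines made by TET enzymes. Its brightest probe read -0.12 and 0.43 in Epcam-derived tumours with CLC, -0.08 and -0.04 in those without CLC, and 0.08 and -0.07 in Albumin-derived tumours. All 3 groups overlapped, with differences of 0.22 ± 0.29 for Epcam-derived tumours with CLC minus those without, -0.07 ± 0.29 for Epcam-derived tumours without CLC minus Albumin-derived tumours, and 0.15 ± 0.29 for Epcam-derived tumours with CLC minus Albumin-derived tumours (adjusted p of 0.999, 0.914 and 0.837 in that order). The dimmer Tdg probe separated the Epcam-derived groups, with -1.997 and -2.57 in tumours with CLC and -2.98 and -3.19 in those without CLC, and stood at -2.13 and -2.45 in Albumin-derived tumours. Its difference between the Epcam-derived groups was 0.81 ± 0.31 with an unadjusted p of 0.0438, and against Albumin-derived tumours the pair without CLC differed by -0.80 ± 0.31 with an unadjusted p of 0.0449. With every probe fitted, neither passed (limma, adjusted p of 0.9996 and 0.250).

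Mbd4 binds methylated CpG and removes the thymine or uracil that deamination leaves there. Its probe read -3.05 and -2.84 in Epcam-derived tumours with CLC, -3.28 and -2.93 in those without CLC, and -3.60 and -3.69 in Albumin-derived tumours. All 4 Epcam-derived tumours were above both Albumin-derived tumours. The difference was 0.69 ± 0.27 for Epcam-derived tumours with CLC (95% interval 0.03 to 1.35, a fold of 1.62, unadjusted p of 0.0426, adjusted p of 0.295) and 0.53 ± 0.27 for those without CLC (95% interval -0.13 to 1.19, adjusted p of 0.322). The difference was 0.59 within slide 1, and that of the tumours without CLC was 0.32 with slide as a block (adjusted p of 0.960). With normexp background correction the Mbd4 differences were 0.13 with CLC (adjusted p of 0.770) and -0.048 without CLC (adjusted p of 0.893), so the size with CLC and the sign without CLC depended on the background correction of this dim probe.

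Msh6 is a subunit of the mismatch sensor that recognises base mismatches such as U:G. Its probe read 0.55 and 1.61 in Epcam-derived tumours with CLC, 1.15 and 1.86 in those without CLC, and 0.78 and 0.91 in Albumin-derived tumours. The 3 arrays of slide 2 were the 3 highest and the 3 arrays of slide 1 the 3 lowest, and the Epcam-derived pair with CLC was split between them. The difference of Epcam-derived tumours without CLC minus Albumin-derived tumours was 0.66 ± 0.45 (95% interval -0.46 to 1.78, adjusted p of 0.446), and with slide as a block it turned to -0.40 (adjusted p of 0.960). Epcam-derived tumours with CLC minus those without gave -0.43 ± 0.45 (adjusted p of 0.999) over all arrays and 0.10 within slide 2, and Epcam-derived tumours with CLC minus Albumin-derived tumours gave 0.24 ± 0.45 (adjusted p of 0.832) over all arrays and -0.30 within slide 1. The slide's part in the Msh6 values was not tested beyond these fits.

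The Msh6 promoter is shown for its density of CpG and GC boxes, the highest of the 9 windows of the 8 genes. The RefSeq window, chr17:87974800-87975099 on the plus strand of GRCm38.p6, has 37 CpG dinucleotides, more than 94.4% of all windows. Capitals mark 5 matches to CCGCCC on either strand, of which 3 overlap by their end bases, and 1 match to the E2F word TTTCCCGC, found in 1.07% of windows and in no other window of the 8 genes. E2F factors drive many S-phase genes.
Msh6: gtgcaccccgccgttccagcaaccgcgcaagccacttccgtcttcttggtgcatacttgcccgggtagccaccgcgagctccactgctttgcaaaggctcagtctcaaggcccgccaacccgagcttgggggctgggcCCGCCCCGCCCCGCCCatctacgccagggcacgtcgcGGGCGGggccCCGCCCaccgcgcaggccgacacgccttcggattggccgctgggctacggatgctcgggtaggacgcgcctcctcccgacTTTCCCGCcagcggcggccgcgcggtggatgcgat

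**Figure D2:**
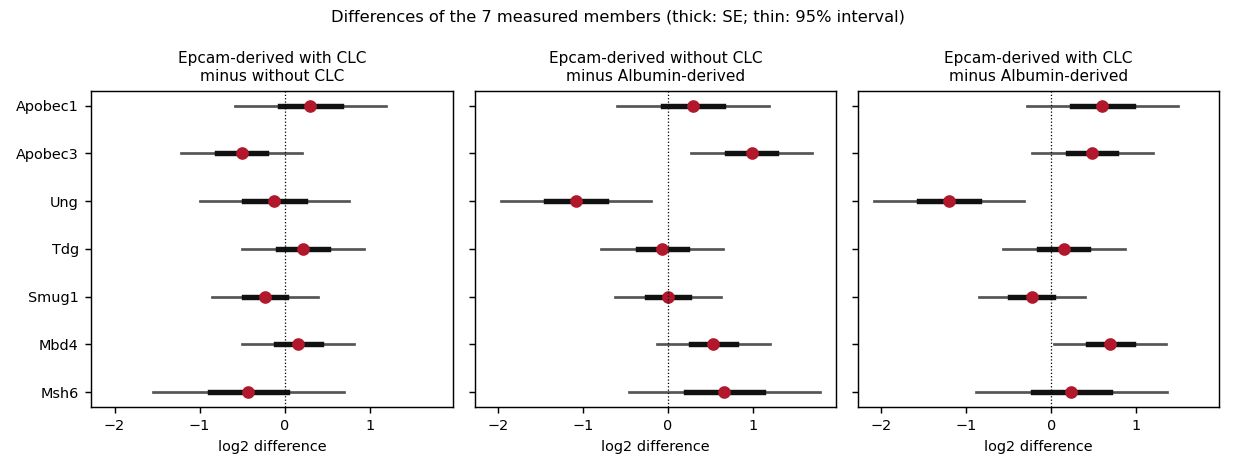
Log2 difference of each of the 7 tested genes in the 3 comparisons, with points at the estimate, thick bars for the SE and thin bars for the 95% interval from limma; positive values mean higher in the group named first. The intervals of Ung lie below 0 against Albumin-derived tumours in both comparisons, that of Apobec3 lies above 0 for Epcam-derived tumours without CLC and that of Mbd4 for Epcam-derived tumours with CLC, and the intervals of Epcam-derived tumours with CLC minus those without all cross 0.

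Taken by comparison, Epcam-derived tumours with CLC against those without CLC called 0 of the 7 tested genes, and 0% of all features passed in that comparison. The groups did not overlap for 2 of the 7, Apobec3 and Smug1, both lower with CLC. Of all features 30.1% did not overlap, 10.3% being higher and 19.8% lower with CLC. Of the 7, 3 differences were above 0, against 43.1% over all features. The median difference was -0.12 over the 7 genes and -0.06 over all features. At an unadjusted p of 0.05, 0 of the 7 passed, against 3.48% of features.

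For Epcam-derived tumours without CLC against Albumin-derived tumours, 0 of the 7 were called and 0.244% of all features passed. Apobec3 and Ung were under an unadjusted p of 0.05, 2 of 7, against 20.0% of features. The groups did not overlap for 4 of the 7, with Apobec3, Mbd4 and Msh6 higher and Ung lower, beside 55.2% of all features (30.4% higher and 24.8% lower). Of the 7, 5 differences were above 0, against 53.5% over all features. The median difference was 0.29 against 0.06 over all features.

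For Epcam-derived tumours with CLC against Albumin-derived tumours, 0 of the 7 were called and 0.0620% of all features passed. Ung and Mbd4 were under an unadjusted p of 0.05, 2 of 7, against 16.0% of features. Apobec1, Apobec3 and Mbd4 were higher and Ung and Smug1 lower without overlap, 5 of 7, beside 50.8% of all features (23.8% higher and 27.0% lower). Again 5 of the 7 differences were above 0, against 49.3% over all features. The median difference was 0.24 against -0.01 over all features. The 3 comparisons share tumours with each other, so their counts stand side by side and are not separate evidence.

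The genes that act with these enzymes also gave 0 calls in each list and comparison. After a glycosylase has cut out uracil, the remaining abasic site is opened by an AP endonuclease, filled by Polb and sealed by Xrcc1 and Lig3. Of 15 such base excision repair genes, 3 were higher and 12 lower in Epcam-derived tumours without CLC than in Albumin-derived tumours, with a median of -0.31, and 4 were higher and 11 lower in those with CLC, with a median of -0.26. Of all features, 53.5% and 49.3% were above 0 in these comparisons. The authors' deposited table moved the median of all features from 0.06 to 0.37 without CLC and from -0.01 to 0.31 with CLC. Counts of signs can therefore depend on the scaling, and the lists were not recounted under that table. Apex2, the minor AP endonuclease, read -1.41 and -1.32 in Epcam-derived tumours with CLC, -1.62 and -0.93 in those without CLC, and -0.17 and -0.23 in Albumin-derived tumours. Its groups did not overlap against Albumin-derived tumours, by -1.16 ± 0.31 with CLC (adjusted p of 0.191) and -1.08 ± 0.31 without CLC (adjusted p of 0.170). Lig3 differed by -0.52 ± 0.28 for Epcam-derived tumours with CLC minus Albumin-derived tumours (adjusted p of 0.436). Ung and Apex2 were both lower in all 4 Epcam-derived tumours, without passing the adjusted threshold. Apex2 had the lowest difference of the 15 genes in both comparisons, and Apex1, above background on 6 arrays, is not reported here. The groups did not overlap for 55.2% of all features without CLC and 50.8% with CLC.

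Of the genes that act with Msh6, Pms2, which belongs to the complex that follows mismatch recognition, read -2.18 and -1.63 in Epcam-derived tumours with CLC, -1.96 and -1.60 in those without CLC, and -2.45 and -2.94 in Albumin-derived tumours. All 4 Epcam-derived tumours were above the Albumin-derived tumours, by 0.79 ± 0.34 with CLC (adjusted p of 0.336) and 0.91 ± 0.34 without CLC (adjusted p of 0.227). Of 19 mismatch repair genes, 12 were higher and 7 lower in Epcam-derived tumours without CLC than in Albumin-derived tumours, with a median of 0.07 and 0 calls. Over all features 53.5% were above 0 in that comparison. The groups did not overlap for 6 of the 19 in each comparison with Albumin-derived tumours, beside 55.2% of all features without CLC and 50.8% with CLC.

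Polymerase eta, encoded by Polh, copies past lesions and makes the A:T mutations that follow mismatch recognition in B cells. Its probe was above background in all 4 Epcam-derived tumours and in neither Albumin-derived tumour. It was at least 2.52-fold higher in Epcam-derived tumours with CLC (adjusted p of 0.119) and at least 2.64-fold higher in those without CLC (adjusted p of 0.0934), a direction that the filter fixed. Of 12 measured translesion genes, 6 were higher and 6 lower in Epcam-derived tumours without CLC than in Albumin-derived tumours.

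In the demethylation pathway that Tdg and Mbd4 serve, Tet3, an oxidase of 5-methylcytosine, read -1.01 and -1 in Epcam-derived tumours with CLC, -0.62 and -0.28 in those without CLC, and -1.95 and -2.07 in Albumin-derived tumours. It was higher by 1.56 ± 0.26 without CLC (adjusted p of 0.0812) and by 1.01 ± 0.26 with CLC (adjusted p of 0.177). Gadd45a, a stress-induced gene that has been linked to demethylation through Tdg, ran the other way, with -0.34 and 1.07 in Epcam-derived tumours with CLC, -0.56 and 0.21 in those without CLC, and 3.07 and 2.66 in Albumin-derived tumours. Its differences were -2.50 ± 0.55 with CLC (adjusted p of 0.142) and -3.04 ± 0.55 without CLC (adjusted p of 0.0908). Tet1 was lower in tumours with CLC than in Epcam-derived tumours without it, by -0.69 ± 0.25 (unadjusted p of 0.0355, adjusted p of 0.999).

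How much uracil enters DNA also depends on the nucleotide pool. Rrm2, the ribonucleotide reductase subunit made in S phase, read 2.11 and 1.52 in Epcam-derived tumours with CLC, 1.40 and 2.53 in those without CLC, and 1.00 and -1.42 in Albumin-derived tumours, a difference of 2.17 ± 0.85 without CLC (adjusted p of 0.241). Cda, a cytidine deaminase of free nucleosides that does not act on nucleic acids, was higher by 1.12 ± 0.39 in the same comparison (adjusted p of 0.208). Of 11 measured genes of this list 7 were higher and 4 lower, with a median of 0.34. Among 9 measured relatives and cofactors of AID, such as the transcription factor Supt5 that helps AID reach transcribed DNA, 1 was higher and 8 lower, with a median of -0.21 (Supt5 at -0.34 ± 0.25, adjusted p of 0.487). Over all features 53.5% were above 0 in this comparison, with the scaling reported here.

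**Figure D3:**
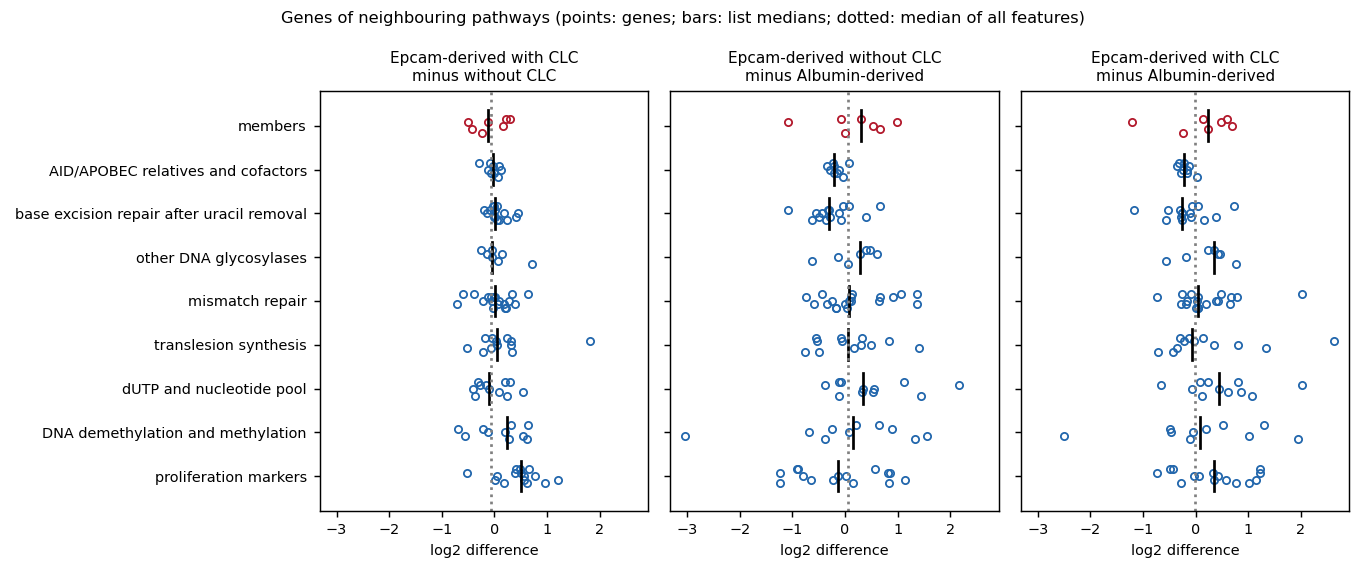
Log2 differences of the genes of each pathway list in the 3 comparisons, 1 point per measured gene, with the 7 tested genes in the top row, a bar at each list's median and a dotted line at the median of all features; positive values mean higher in the group named first. With the scaling reported here, base excision repair genes lie mostly below 0 against Albumin-derived tumours, 12 of 15 without CLC and 11 of 15 with CLC. Of all features, 53.5% and 49.3% were above 0 in these comparisons. No gene shown passed the adjusted threshold.

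Levels of cell type marker genes also differed against Albumin-derived tumours, with 0 calls in every marker list, and cell content itself was not measured. Hepatocyte markers were lower for 11 of 12 genes in Epcam-derived tumours with CLC and 10 of 12 in those without CLC than in Albumin-derived tumours, and their summed linear level was 2053 to 2827, 2188 to 2652 and 3998 to 4522 times the array percentile in Epcam-derived tumours with CLC, those without CLC and Albumin-derived tumours. Ung was lower and Apobec3 and Mbd4 were higher in the tumours with the smaller sums, except that Mbd4 without CLC was not higher with normexp. Macrophage markers were higher for 10 of 12 and 12 of 12 genes in the same pair of comparisons, with summed levels of 134 to 157, 107 to 131 and 47.3 to 90.0 in the same 3 groups. Over all features 49.3% and 53.5% were above 0 in these comparisons. Cd163, counted among the higher genes, was below background in both Albumin-derived tumours, so the filter fixed its direction. Apobec3 is known to be expressed in blood cells, and its highest values were in the tumours without CLC, whose macrophage sum lay between those of the other groups. T and NK cell markers summed to 19.4 to 31.4, 31.4 to 48.4 and 25.3 to 45.6 times the array percentile in Epcam-derived tumours with CLC, those without CLC and Albumin-derived tumours, and 9 of 11 measured genes were higher without CLC than in Albumin-derived tumours, with 0 calls and Ncr1 above background on 0 arrays. With CLC, 8 of 11 were higher than without CLC (43.1% of all features) and 7 of 11 higher than in Albumin-derived tumours. Their mean log2 levels were -1.02 to -0.62, -1.25 to -0.81 and -1.34 to -1.15 in the 3 groups, so sums and means did not rank the groups alike. B and plasma cell markers summed to 50.2 to 53.8, 31.5 to 37.4 and 26.9 to 45.8 in the same 3 groups, with 6 of 10 measured genes higher without CLC than in Albumin-derived tumours and Blk above background on 0 arrays. The part of these cell types in the values of Ung, Apobec3 or Mbd4 was not tested.

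Proliferation markers, which bear on genes used in S phase such as Ung and Msh6, averaged -0.93 and 0.41 on the log2 scale in Epcam-derived tumours with CLC, -1.62 and 0.19 in those without CLC, and -0.03 and -1.17 in Albumin-derived tumours. The ranges of all 3 groups overlapped. Ung was higher in the Albumin-derived tumour with the higher proliferation mean (6.82 against 6.00) and in the Epcam-derived tumour with CLC of the higher mean (5.27 against 5.15), but not in that without CLC (5.18 against 5.48). Msh6 was higher in the tumour with the higher mean in both Epcam-derived groups, but not among the Albumin-derived tumours (0.78 against 0.91). With CLC, 14 of 15 proliferation genes were above their level in Epcam-derived tumours without CLC, with 0 calls.

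**Figure D4:**
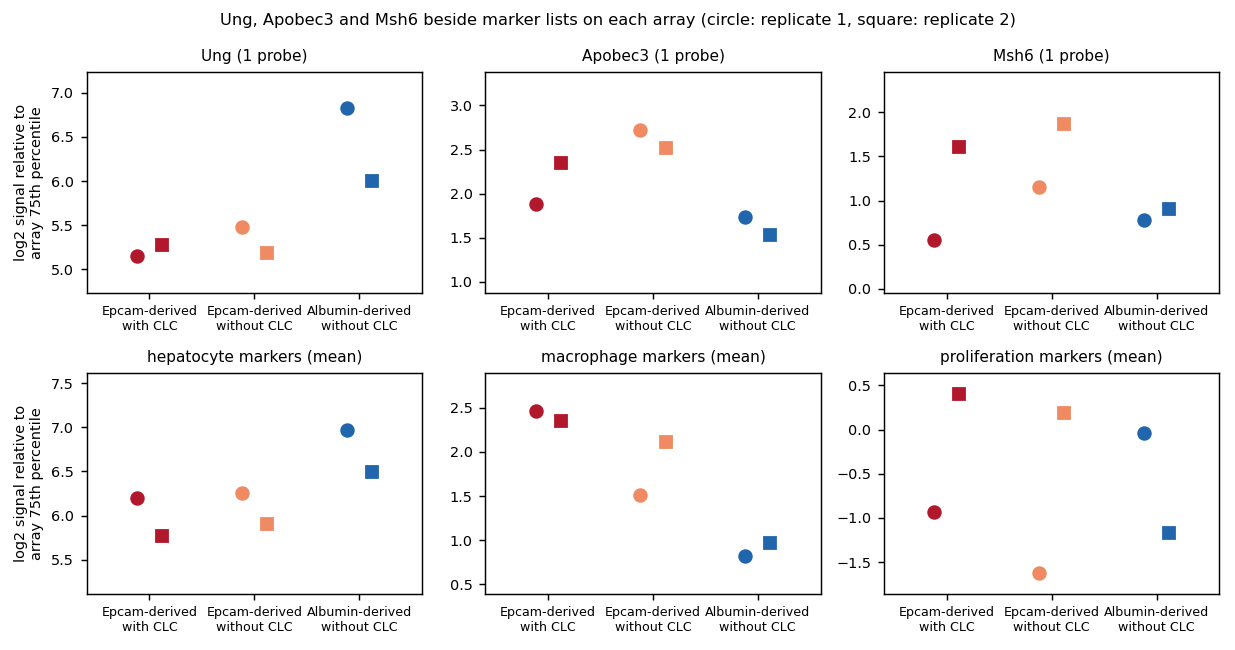
Mean log2 level of hepatocyte, macrophage and proliferation marker genes on each of the 6 arrays, beside the levels of Ung, Apobec3 and Msh6, relative to the 75th percentile of each array; groups run from Epcam-derived tumours with CLC through those without CLC to Albumin-derived tumours. Hepatocyte markers are highest and macrophage markers lowest in the Albumin-derived tumours, while the proliferation mean spreads within every group.

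Across the 6 arrays, the 3 genes with the widest range were set against 13507 named features above background on all of them, as a description with no test. The features most like Ung were Atxn7, Nrp2 and Arl6ip6, each with a Pearson r of 0.999, and 397 features exceeded 0.9. Those most like Msh6 were Sox9, a transcription factor of bile duct and progenitor cells (r of 0.999), Rtca and Fam216a (0.990 each), with 168 features over 0.9. Those most like Apobec3 were Odf3l2 and Tmem196 (0.996 each) and Srpx2 (0.995), with 481 features over 0.9. With 6 points that share 2 slides and 3 groups, high values arise for many features.

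All 8 genes matched the RefSeq promoter table, with 9 windows of 300 bases. CpG dinucleotides numbered 26 for Tdg, 25 for Mbd4, 15 for Smug1, 13 and 4 for the windows of Apobec3, 9 for Apobec1 and 5 for Apobec2, beside the counts for Ung and Msh6 given above. TATAAA, present in 13.6% of all windows, was found in those of Apobec1 and Apobec2 and in the second window of Apobec3, and in none of the 5 repair genes. These matches describe the letters of the windows and not binding.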

How the data were processed

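Total RNA (0.1 µg) of each tumour was labelled with Cy3 and hybridised to 1-colour Agilent arrays, per the labels' protocols. Per the file headers, the spot intensity that the authors deposited came from Agilent Feature Extraction (version 11.5.1.1), with background subtracted and trends removed. The yes or no marks for spots above background, outlier or saturated are other columns of the deposited files. The authors' deposited table holds the same processed intensity multiplied by a factor for each array (2.42 and 1.64 for Epcam-derived with CLC, 1.81 and 1.73 for Epcam-derived without CLC, 2.36 and 1.91 for Albumin-derived), with column medians of 73.9, 78.0, 80.0, 74.1, 61.9 and 55.0 in that order. It is linear, not centred and of the same direction, and what set the factors is not given in the sources used here.

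Of 62976 spots an array, 59305 were not controls and carried 56605 probes. From log2 of the processed signal, each array's 75th percentile was subtracted, outlier spots were left out, and spots of a probe were averaged. The filter asked that both arrays of some group read a probe as well above background, which 34777 probes met, and 5 were dropped for an outlier spot. RefSeq accessions (GRCm38.p6, used for names and promoter windows because the array design is on mm9) named 32994 probes. The brightest passing probe stood for a gene, and probes with no symbol were joined by accession, giving 27412 features, 15868 with a symbol.

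limma 3.58.1 in R 4.3.3 (reading by jsonlite 2.0.0 and data.table version 1.17.8) fitted all 6 arrays with a coefficient per group (lmFit and eBayes; 3 residual and 2.62 prior degrees of freedom). Tests were two-sided, with p Benjamini-Hochberg adjusted over all features, threshold 0.05, and values after ± are SE. Where neither array of a group read a probe above background, a bound was given: the brighter group's mean minus the dim group's mean, each dim array first raised to its lowest signal above background. The fit was tested on simulated data. The text names all 8 genes, every gene past the threshold in any list, and up to 4 genes per list and comparison with the smallest unadjusted p; other genes named were chosen for a known role, and some genes of the lists are not reported here. Most alike features were the 3 with the highest Pearson r to each of the 3 genes of widest range. The genes, the lists and the motif words were chosen with earlier results of these data known. The mean spot signal was not used here, so normexp ran on median signals, an alternative chosen after seeing the data. Precision is limited by 2 arrays a group.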

Additional observations from a re-analysis of the deposited data

How the results depend on the processing

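The 7 tested genes gave 0 calls under every alternative tried (Apobec2 was not tested in any): 371 gene differences were recomputed, 0 passed the threshold, and 25 changed sign. Ung kept its sign against Albumin-derived tumours in all of them, at -1.61 to -0.74 with CLC (lowest adjusted p of 0.180) and -1.49 to -0.62 without CLC (lowest adjusted p of 0.169), and Apobec3 kept its sign for Epcam-derived tumours without CLC minus Albumin-derived tumours, at 0.53 to 1.30 (lowest adjusted p of 0.106). Many alternatives left the differences themselves unchanged, so a kept sign adds nothing there. These were the filters, every probe, only the groups compared, the replicate number as a block, the intensity trend, and leaving out an array of a group not compared. For Epcam-derived tumours without CLC minus Albumin-derived tumours, signs turned for Mbd4 (-0.048) and Smug1 (-0.16) with normexp on median signals, for Smug1 with quantile normalization (-0.028) and median scaling (-0.087), for Tdg in the authors' deposited table (0.24), and for Msh6 (-0.40), Smug1 (-0.18) and Apobec1 (-0.11) with slide as a block. For Epcam-derived tumours with CLC minus Albumin-derived tumours they turned for Smug1 in the authors' deposited table (0.089) and, with slide as a block and equally within slide 1, for Tdg (-0.13) and Msh6 (-0.30), and for Epcam-derived tumours with CLC minus those without, Msh6 turned to 0.10 within slide 2 and in the fit blocked on slide. The cause was not tested.

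Leaving out each array in turn gave, for Epcam-derived tumours with CLC minus those without, -0.96 to 0.10 for Msh6, -0.057 to 0.49 for Tdg, -0.014 to 0.33 for Mbd4 and -0.27 to 0.027 for Ung. It gave -0.13 to 0.42 for Tdg and -0.30 to 0.77 for Msh6 for Epcam-derived tumours with CLC minus Albumin-derived tumours, and -0.11 to 0.11 for Smug1, -0.14 to 0.0064 for Tdg and -0.027 to 0.62 for Apobec1 for those without CLC minus Albumin-derived tumours. A lone array was assumed to vary like the other groups.

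Features called in Epcam-derived tumours without CLC minus Albumin-derived tumours, 67 as reported, numbered 135 with normexp, 107 with quantile normalization, 106 with median scaling, 129 in the authors' deposited table, 104 with every probe, 32 above background on all 6 arrays, 16 with only the 2 groups compared, 11 with the replicate number as a block, 1 with no filter, 0 with slide as a block and 0 to 16 with an array left out. For Epcam-derived tumours with CLC minus Albumin-derived tumours, 17 as reported, they numbered 66 with normexp, 66 with quantile normalization, 35 with median scaling, 39 with an intensity trend in eBayes, 1 with no filter, 0 with only the 2 groups compared, within slide 1, and with the slide or the replicate number as a block, and 0 to 0 with an array left out. Between the Epcam-derived groups 0 features passed under every alternative. The split of calls was 16 higher and 51 lower as reported, against 63 higher and 66 lower in the authors' deposited table, whose scaling set the median of all features at 0.37 (0.06 as reported, -0.16 with normexp), and at 0.31 for tumours with CLC (-0.01 as reported).

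Same-numbered tumours correlated in their deviations from the group mean at 0.23, -0.16 and 0.06 in the 3 comparisons, so the numbers are not taken as pairs, and with the replicate number as a block Ung differed by -1.08 (adjusted p of 0.218) between Epcam-derived tumours without CLC and Albumin-derived tumours. With 3 residual degrees of freedom, differences of the size seen here can go uncalled, and probes near background, such as that of Apobec2, have no measured level.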
